A study of Rattus norvegicus with 8 samples.

Results

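Molecular chaperones of the heat-shock families and their co-chaperones were examined in hypothalamus from adult rats, all male and of the Long-Evans strain. The members were the protein-coding genes whose symbol begins with Dnaj, Hspa, Hspb, Hsph, Hsp90, Hspd or Hspe, or with Cct or Bag followed by a digit, leaving out Hspa5 and Hsp90b1, the chaperones of the endoplasmic reticulum. Of 12255 genes in the table, 65 met this rule, with 261 of 73922 polyadenylation sites. The method was WTTS-seq, which counts reads at the 3′ ends of polyadenylated RNA. The 4 control rats ate standard rodent chow (0.51 kcal/g from fat) and the 4 rats of the diet-induced obesity group had free access to a high fat diet (1.71 kcal/g from fat). Tissue was taken after 36 days, and 1 library was made for each rat. Labels number the libraries 1 to 4 in each group. They give no body weight, so the groups are named here as labelled.

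Chaperones bind proteins that are not yet folded, or no longer folded, and keep them from aggregating. Hsp70 proteins bind and release such clients in a cycle driven by ATP. J-domain proteins (the Dnaja, Dnajb and Dnajc families) bring them clients and start ATP hydrolysis. Hsp110 and many Bag proteins exchange the nucleotide so that the client is released. Hsp90 receives kinases and steroid receptors from Hsp70 through the adaptor Stip1, Cct subunits form the ring-shaped TRiC complex that folds actin and tubulin, and small heat-shock proteins hold unfolded clients without ATP. On heat or proteotoxic stress the transcription factor Hsf1 binds heat shock elements in the promoters of many of these genes. In neurons, chaperones also serve synaptic vesicle release and the removal of clathrin coats.

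The symbols did not all fit a cytosolic label. By their known location, for example, Hspd1, Hspe1, Hspa9, Dnaja3, Dnajc15 and Dnajc19 act in mitochondria, and Dnajb11, Dnajc3, Dnajc10 and Hspa13 in or at the endoplasmic reticulum. These are examples, and members not named here were not sorted by location. Hspbp1, Hspbap1 and Hspb11 carry the prefix without being small heat-shock proteins and were kept apart from them. The group was therefore described as the set of genes that the symbol rule returns. Hspa1a, Hspa1b and Hsp90aa1, the classical stress-inducible members, were not analysed here.

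The 8 libraries held 1417531 to 1957726 reads, 13341135 in all, of which 72618 fell on the members. A member had a median of 288 reads over all libraries, against 235 for all genes. There were 16 members under 100 reads, 39 from 100 to under 1000 and 10 at 1000 or more, and 8 members had at least 1 library without a read. Levels are given in CPM, the reads of a gene relative to all gene-assigned reads of its library after TMM scaling, a correction for differences in library composition. Reads were counted at 3′ ends, so CPM was not divided by length. Reads also lay at sites before the last one of a gene. The last site held 5.69% of Dnajc6 reads, 2.19% of Hsp90ab1 reads and 90.1% of Dnajc27 reads. Whether 1 transcript gave reads at more than 1 site was not tested, so levels of different genes are compared with caution. Of 15 hypothalamic marker genes, 14 were in the table, and their summed level was 1248 to 1666 CPM in control and 1033 to 1278 in obesity. Some libraries stood apart in markers of tissue next to the hypothalamus or of neuronal activity. Pituitary markers (3 of 6 in the table) summed to 123.9 CPM in obesity 2 against 5.95 to 55.8 elsewhere, and the choroid plexus marker in the table reached 95.2 CPM in obesity 4 against at most 1.49. Activity genes (3 of 10) summed to 348.9 CPM in obesity 3 against 127 to 187. Transcripts of the mitochondrial genome took 5.32 to 8.27% of reads in control and 6.99% in obesity 2, but 3.85 to 4.34% in the other obesity libraries. All 9 oligodendrocyte markers had a log2 fold change below 0, and their summed level was 17340 to 22230 CPM in control and 13400 to 20870 in obesity, with obesity 2 the highest of its group. Obesity 1 was lowest in summed astrocyte markers, at 2514 CPM against 3427 to 4528 elsewhere. It was also lowest in microglia (38.6 against 78.7 to 126.8 CPM) and red blood cell markers (20.79 against 40.67 to 88.55 CPM). In neuron (6354 CPM) and vascular markers (164.8 CPM) it was the highest of its group. Sites without a read numbered 14788 in control 1 and 10659 in obesity 1, against 4062 to 6622 in the other 6 libraries. The part of these differences in the results below was not tested.

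Strand was read beside the RefSeq promoter table, which is on another assembly (GRCr8), where a stretch of chromosome can have the other orientation. Most reads lay on the strand opposite to the listed one for 6 of the 56 members in that table and for 11.4% of 8374 genes. Of the 10 nearest genes, 1 to 5 had most reads on their listed strand around Bag6, Dnajb1, Dnajb6 and Hspa1l, 8 around Hsph1 and 10 around Cct6b. Rxfp2, the gene next to Hsph1, was on its other strand as well. Whether the reads assigned to Cct6b and Hsph1 come from these genes is therefore uncertain. For Bag6, Dnajb6 and Hspa1l, where 4 or 5 of the 10 nearest genes were on their listed strand, it was not settled either.

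Promoter sequence was available for 56 of the 65 members, from RefSeq on the GRCr8 assembly, 250 bases before to 50 bases after the gene start. A heat shock element of 3 units, GAANNTTCNNGAA or TTCNNGAANNTTC on the gene's strand, was found in 6 of them (10.7%), against 0.736% of 27457 promoters of this length. The motif was chosen after the expression values were seen. The sequences are shown because they mark the members that carry a full element near the start, and capitals mark the element.
Hsph1 (chr12:10427324-10427352, plus strand): gccgcagaTTCTGGAAAGTTCtcctcagt
Hspa8, distal (chr8:50080293-50080321, plus strand): gcgagcgtGAAAGTTCCAGAAcgctgcgg
Hspa8, proximal (chr8:50080451-50080479, plus strand): cggaacccTTCTGGAAGGTTCtaagacag
Dnaja1 (chr5:60638405-60638433, plus strand): gccgggcgGAACTTTCCAGAAcgctcggt
Cct4 (chr14:101193074-101193102, plus strand): gcgtcgctTTCTGGAAGGTTCgtggaggc
Hspe1 (chr9:64084254-64084282, plus strand): gcgctcggTTCTAGAACCTTCcggaaggc
Hspd1 and Hspe1 lie head to head with starts 290 bases apart, so the sequence printed for Hspe1 is also the element of Hspd1, read from the other strand. Hspa8 was the member with a pair of separate elements, at -213 and at -55 from the start. The shorter form of 2 units, GAANNTTC or TTCNNGAA, was present in 18 members (32.1%) and in 15.4% of all promoters. It is contained in the longer one, and a match describes letters, not binding.

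Hsp90ab1, the constitutive cytosolic Hsp90, was by far the most abundant member in CPM. It held 43615 reads, 60.1% of all member reads, on chromosome 9 (plus strand, 17820142 to 17823311 on Rnor_6.0, the build of all positions from here on). Its level was 7244, 4930, 2083 and 4088 CPM in control libraries 1 to 4 and 4426, 3658, 1860 and 2458 CPM in obesity libraries 1 to 4. The groups overlapped, and in each of the 4 same-numbered pairs the obesity library was the lower. Control averaged 4586 ± 2137 CPM and obesity 3100 ± 1158 CPM (SD, n = 4). The log2 fold change was -0.57 (SE 0.35, edgeR unadjusted p 0.131, adjusted p 0.913), or -0.28 without control 1. The SD of the control libraries, which takes no account of the library number, was larger than the difference of the means. With the number as a block the log2 fold change was -0.51 (SE 0.13, edgeR unadjusted p 0.000414, adjusted p 0.114). Summed neuron markers (7 of 8 in the table) were at 7319, 6165, 3996 and 4975 CPM in control 1 to 4. In obesity 1 to 4 they were at 6354, 5088, 4644 and 3842 CPM. They fell in the same order as Hsp90ab1 over the control libraries. Over the obesity libraries the order differed, with obesity 4 lowest in these markers and obesity 3 lowest in Hsp90ab1. Of the 7 neuron markers, 4 had a log2 fold change below 0. Their part in the Hsp90ab1 values was not tested, and in bulk tissue fewer cells of a type and less RNA per cell cannot be told apart.

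**Figure D1:**
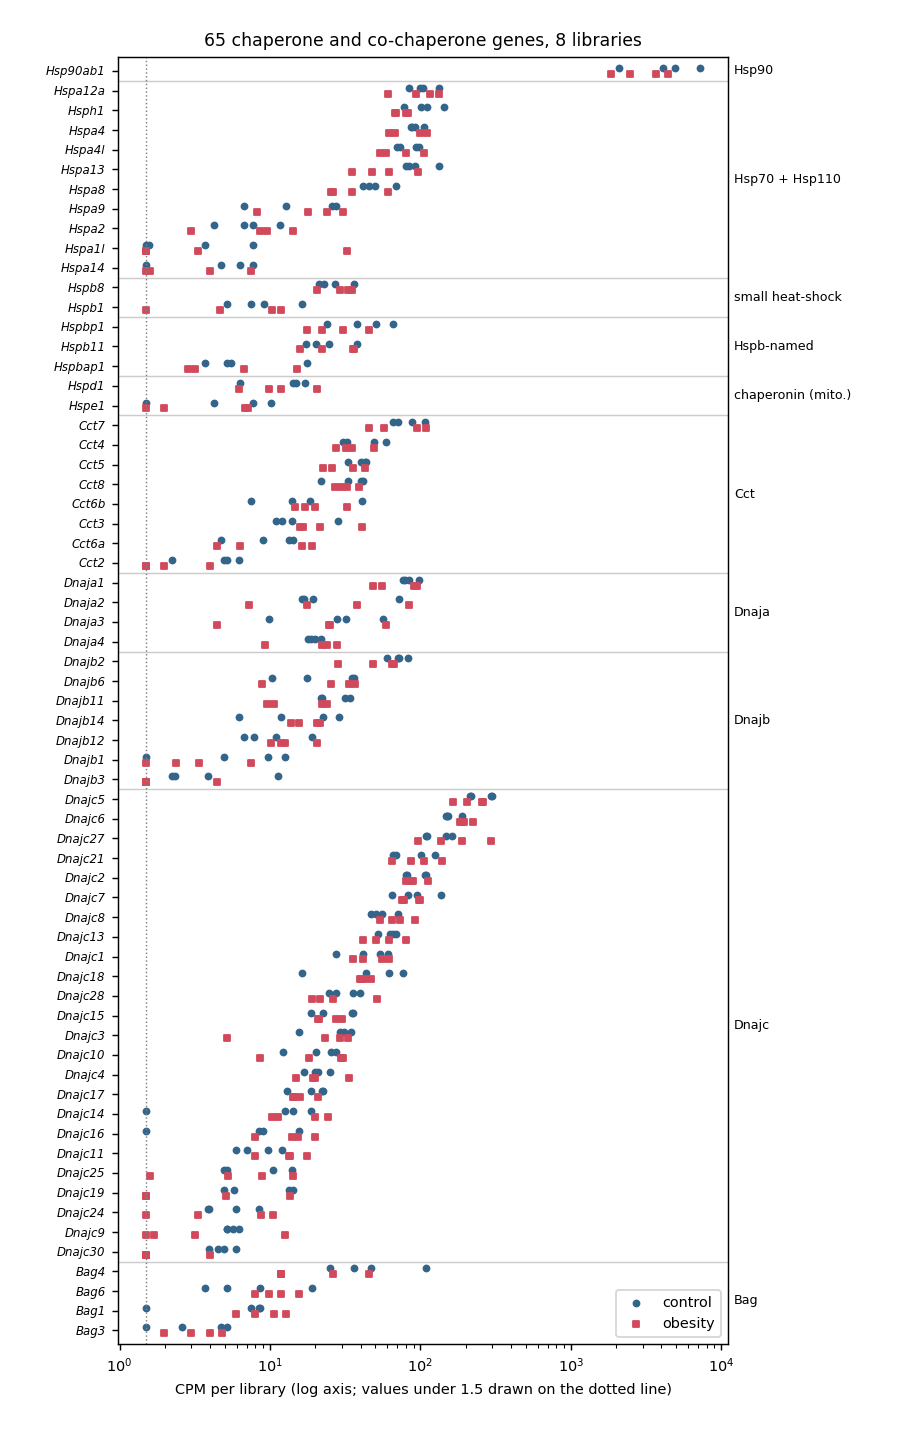
Level of each of the 65 genes in CPM (log axis) in the 4 control libraries (circles) and 4 obesity libraries (squares), grouped by family. Hsp90ab1 lies between 1860 and 7244 CPM, far right of all others, and the groups overlap in every gene. Values under 1.5 CPM, zeros included, are drawn on the dotted line.

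The Hsp70 family with Hsp110 had 10 members, from 4.23 to 103 CPM on average. Hspa12a, a divergent Hsp70 of brain, was its highest, with 83.4, 98.8, 133.8 and 104.1 CPM in control and 60.9, 93.7, 133.1 and 116.3 in obesity, and the groups lay in the same range. Hsph1, an Hsp110 that exchanges the nucleotide of Hsp70, had 77.7, 110.4, 143.2 and 101.2 CPM in control and 69.0, 82.6, 67.4 and 80.0 CPM in obesity. The lowest control library lay inside the obesity range and the other control libraries above it. Hspa4, another Hsp110, averaged 93.0 ± 8.50 and 84.8 ± 24.1 CPM, and its relative Hspa4l 83.7 ± 14.0 and 74.6 ± 23.4 CPM (control and obesity, SD, n = 4). Hspa8, the constitutive Hsc70 that also strips clathrin coats, was at 45.2, 41.3, 68.9 and 49.8 CPM in control and 34.9, 61.2, 25.5 and 26.4 CPM in obesity. Obesity 2 lay inside the control range and the other obesity libraries below it. Log2 fold changes were below 0 for 7 of the 10 members, with a median of -0.15.

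J-domain proteins made up 35 of the 65 members in number, 4 Dnaja, 7 Dnajb and 24 Dnajc. Dnajc genes took 20.2% of member reads, led by 2 genes of the synaptic vesicle cycle. Dnajc5, the cysteine string protein that guards synaptic vesicle proteins, averaged 255.2 ± 47.0 CPM in control and 220.6 ± 45.2 in obesity. Dnajc6 is auxilin, the neuronal J protein that brings Hsc70 to clathrin coats. Its libraries had 149.8, 152.4, 148.7 and 188.9 CPM in control and 183.4, 189.8, 193.7 and 223.4 in obesity, with control 4 inside the obesity range and the obesity library the higher in 4 of 4 pairs. Dnajc27, a small GTPase with a J domain, ranged from 109.3 to 163.2 CPM in control and from 96.5 to 296.2 in obesity. Among Dnaja genes, Dnaja1, a cytosolic Hsp40, averaged 84.3 ± 9.64 and 72.6 ± 23.8 CPM (control and obesity). Dnaja2, its close relative, was 72.3 CPM in control 2 and 83.4 in obesity 2 but 7.27 to 37.9 in the other 6 libraries. Dnaja3, mitochondrial, averaged 31.6 ± 19.2 and 28.4 ± 22.8 CPM. Of the Dnajb genes, Dnajb2, a neuronal J protein, was highest at 71.7 ± 9.16 and 52.0 ± 17.8 CPM. Dnajb6, a suppressor of polyglutamine aggregation, averaged 24.7 ± 12.8 and 26.2 ± 12.5 CPM, and Dnajb11, of the endoplasmic reticulum, 27.4 ± 6.15 and 16.5 ± 7.48 CPM. Dnajb1, the main stress-inducible Hsp40, had 57 reads in all and averaged 6.95 ± 5.23 and 3.47 ± 2.87 CPM.

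The 8 Cct genes, among which Cct6a and Cct6b encode alternative forms of the same subunit, took 3.80% of member reads and averaged between 3.17 CPM (Cct2) and 79.9 CPM (Cct7). Cct7 stood at 83.2 ± 19.2 CPM in control and 76.7 ± 30.1 in obesity, Cct4 at 42.8 ± 13.9 and 35.8 ± 9.27, and Cct5 at 39.9 ± 4.66 and 31.8 ± 9.23. The mitochondrial chaperonin Hspd1 and its lid Hspe1 averaged 13.2 ± 4.72 and 5.73 ± 4.12 CPM in control and 12.2 ± 6.12 and 3.98 ± 3.55 CPM in obesity. Hspb8, a partner of Bag3 in clearing misfolded proteins, averaged 26.8 ± 6.83 and 29.4 ± 6.29 CPM, and Hspb1, the small heat-shock protein Hsp27, 9.56 ± 4.87 and 7.08 ± 4.87 CPM.

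Many Bag proteins hold Hsp70 by a shared domain. Bag4, which also silences death receptors, was the most abundant of the 4, with 109.5, 36.2, 25.1 and 46.9 CPM in control and 45.3, 11.9, 11.9 and 26.4 CPM in obesity. Each obesity library was lower than the control library of its number, though the groups overlapped. Bag6, which handles membrane proteins that missed their target, averaged 9.14 ± 6.93 and 11.3 ± 3.27 CPM. Bag1, at 6.11 ± 4.10 and 9.29 ± 2.97 CPM, had no read in control 1. A count of 0 there allows up to 3 reads, or 2.07 CPM before TMM scaling, a limit that covers counting error only. Bag3, a stress-inducible member, had 38 reads in all and averaged 3.30 ± 2.07 and 3.42 ± 1.21 CPM.

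Summed by family, Hsp90ab1 dominated the share of reads. All members took 0.719 ± 0.187% of the reads assigned to genes in control libraries, against 0.550 ± 0.0979% in obesity (SD, n = 4). Without Hsp90ab1 the share was 0.263 ± 0.0207% and 0.246 ± 0.0241%. Dnajc genes had 0.126 ± 0.00910% and 0.130 ± 0.00889%, Hsp70 with Hsp110 had 0.0577 ± 0.0111% and 0.0476 ± 0.0127%, and Cct had 0.0253 ± 0.00341% and 0.0233 ± 0.00277%. Dnajb shares were 0.0165 ± 0.00212% and 0.0130 ± 0.00186%. No test was run on these sums.

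The comparison of diet-induced obesity with control asked which members differed between the diets. No member passed an adjusted p of 0.1 (edgeR quasi-likelihood test, Benjamini-Hochberg over all genes), nor did any of the 12255 genes (0%). By the DESeq2 Wald test 0 members passed as well, against 0.0245% of all genes. At an unadjusted p under 0.05, 3 of 65 members (4.62%) were lower in obesity, against 2.52% of all genes, and 0 were higher, against 2.77%. DESeq2 gave the same 3 lower, against 2.78% of all genes, and 0 higher, against 3.27%. No member had groups that did not overlap, against 1.84% of all genes higher and 1.67% lower. The log2 fold change was below 0 for 38 members (58.5%), compared with 49.2% of all genes, and its median was -0.12 over the members and 0.01 over all genes.

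The 3 lower members were Bag4, Hspa13 and Hsph1, where the assignment of reads to Hsph1 is uncertain by strand, as given above. Bag4 averaged 54.4 ± 37.8 CPM in control and 23.9 ± 15.8 CPM in obesity, a log2 fold change of -1.19 (SE 0.50, edgeR unadjusted p 0.0301, adjusted p 0.904). Without control 1 it was -0.62, and with the library number as a block and without both libraries numbered 1 it was -1.15. Hspa13, an Hsp70-like protein of microsomes that lacks a client-binding domain, had 84.1, 91.7, 133.8 and 80.3 CPM in control and 47.5, 96.9, 61.7 and 35.0 CPM in obesity. Only obesity 2 of its obesity libraries reached the control range, as it did in its mitochondrial share, and the log2 fold change was -0.69 (SE 0.30, edgeR unadjusted p 0.0348, adjusted p 0.904). Hsph1 averaged 108.1 ± 27.1 CPM in control and 74.8 ± 7.65 in obesity, a log2 fold change of -0.53 (SE 0.24, edgeR unadjusted p 0.0417, adjusted p 0.904). Bag4 and Hsph1 were lower in 4 of 4 pairs and Hspa13 in 3 of 4. The count of 3 rested on single libraries, since it was 0 without obesity 3 (all genes 2.06%), 1 without obesity 4 (all genes 1.95%) and 6 without obesity 2 (all genes 5.72%).

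With the library number as a block, 0 members passed an adjusted p of 0.1, against 0.122% of all genes, and 6 members (9.23%) were lower at an unadjusted p under 0.05, against 5.83% of all genes. None was higher, against 5.03%. The 6 were the 3 above with Hsp90ab1, Dnajb2 and Dnajb3. Hsp90ab1 had a log2 fold change of -0.51 (SE 0.13, edgeR unadjusted p 0.000414, adjusted p 0.114) and Bag4 of -1.18 (SE 0.29, edgeR unadjusted p 0.000442, adjusted p 0.114) in this fit. Over 18 alternative fits the adjusted p ranged from 0.0163 to 1.00 for Hsp90ab1, from 0.0658 to 1.00 for Bag4 and from 0.0157 to 1.00 for Hspa13, each at its lowest with the block and without both libraries numbered 2. In that fit of 6 libraries 4 members passed, these 3 and Hspbp1, an Hsp70 nucleotide exchange factor (log2 fold change -1.14, edgeR adjusted p 0.0785), where 4.63% of all genes passed. Dnajb3 had 34 reads in all and was listed at 0 in 3 obesity libraries, so its fold change has little under it.

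**Figure D2:**
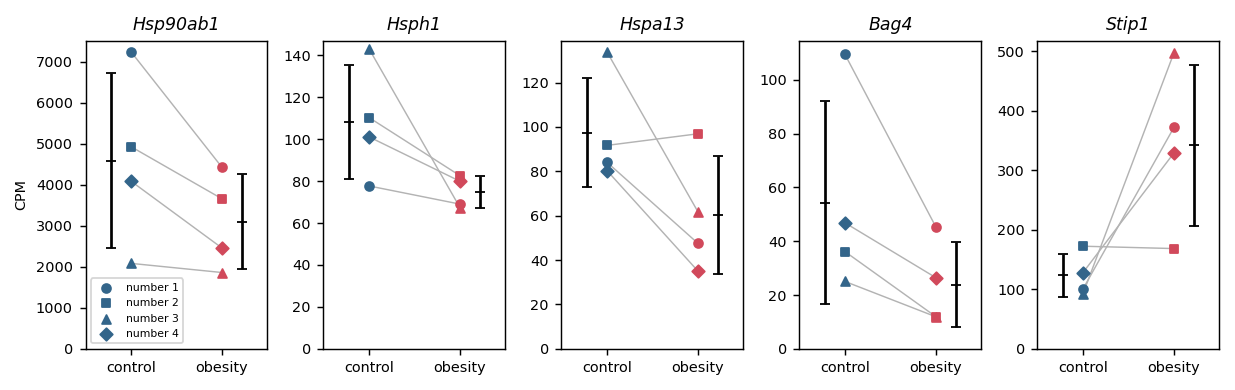
CPM of Hsp90ab1, Hsph1, Hspa13, Bag4 and Stip1 (reads of both strands) in the 4 control and 4 obesity libraries, with grey lines joining libraries of the same number and bars for mean ± SD (n = 4). Every line falls for Hsp90ab1, Hsph1 and Bag4, number 2 rises for Hspa13, and for Stip1 number 2 is level (172.4 and 168.4 CPM) while the others rise.

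The higher side held no member below an unadjusted p of 0.05. Its 3 smallest values belonged to Dnajc6, Dnajc27 and Dnajc8. Dnajc6 averaged 159.9 ± 19.4 CPM in control and 197.6 ± 17.7 in obesity, a log2 fold change of 0.30 (SE 0.20, edgeR unadjusted p 0.141, adjusted p 0.921). For Dnajc27, 132.7 ± 27.1 and 180.0 ± 86.4 CPM gave 0.44 (SE 0.29, edgeR unadjusted p 0.151, adjusted p 0.927), with obesity 1 alone at 296.2 CPM, and the log2 fold change was 0.0932 without this library. Dnajc8, a J protein of the spliceosome, averaged 55.8 ± 10.3 and 70.7 ± 15.8 CPM, a log2 fold change of 0.34 (SE 0.26, edgeR unadjusted p 0.213, adjusted p 0.928). Of the Dnajc8 reads, 24.6% lay on the strand opposite to most of them, and without these the log2 fold change was -0.03. Without obesity 1 it was 0.19.

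Direction within pairs was counted as well. Members lower in obesity in 4 of 4 same-numbered pairs numbered 9 (13.8%), against 9.56% of all genes, and those higher in 4 of 4 numbered 3 (4.62%), against 9.24%. The 9 were Hsp90ab1, Hsph1, Bag4, Dnajc5, Dnajb2, Cct4, Cct2, Dnajb3 and Dnajc30, and the 3 were Dnajc6, Dnajc8 and Dnajc11. These names follow from the count and were chosen after their values were seen.

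**Figure D3:**
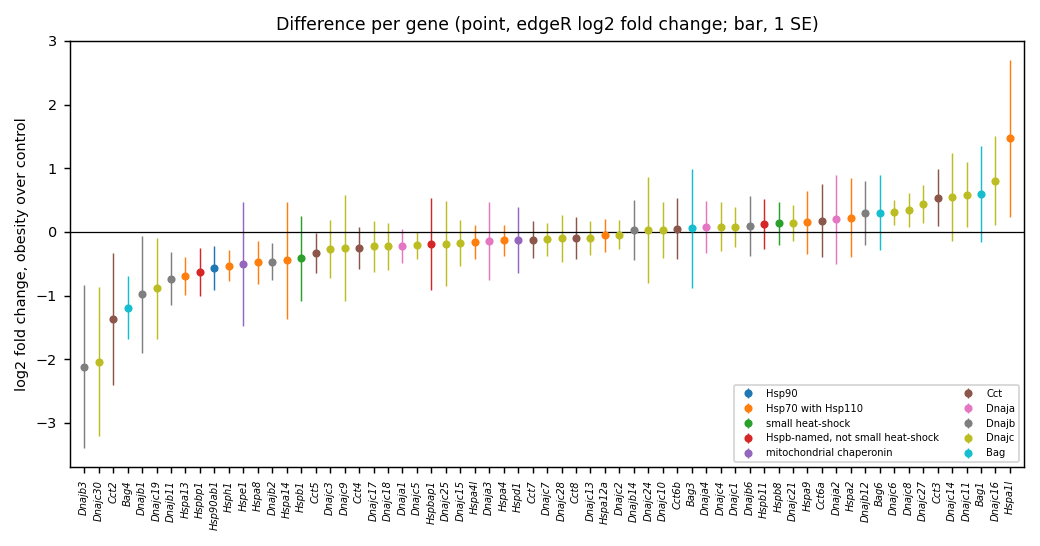
Log2 fold change of obesity over control for each of the 65 genes (points, edgeR without block), with bars of 1 SE, coloured by family and ordered by value. The widest bars belong to genes of few reads, such as Dnajb3 (34 reads) and Hspa1l (82 reads), and Hsp90ab1, Hsph1, Hspa13 and Bag4 lie between -0.53 and -1.19.

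A list of 11 genes known from the heat-shock response, the constitutive Hspa8 among them, had 8 in the table. Of these, 7 had a log2 fold change below 0, against 49.2% of all genes, with a median of -0.45. At an unadjusted p under 0.05, 1 of the 8, Hsph1, was lower, against 2.52% of all genes, and 0 were higher, against 2.77%. Whether the reads of Hsph1 come from this gene is uncertain by strand. Hspa8 had a log2 fold change of -0.48 (SE 0.33), Dnajb1 of -0.98 (SE 0.91), Hspe1 of -0.51 (SE 0.98), Hspb1 of -0.41 (SE 0.67), Hspa4l of -0.16 (SE 0.27), Hspd1 of -0.12 (SE 0.52) and Bag3 of 0.06 (SE 0.94). Apart from Hsph1 none of these lay more than 1.5 SE from 0. The summed level of the 8 was 245.9 to 367.1 CPM in control and 181.9 to 269.3 CPM in obesity, with obesity 2 as the highest of its group. The 6 members with the 3-unit heat shock element shown above were all below 0, with a median of -0.36. Among the 50 matched members without it, 28 were below 0, with a median of -0.11. Of the 6, Hsph1, Hspa8, Hspd1 and Hspe1 are also among the 8 genes above, so this count partly repeats theirs. The others, Dnaja1 at -0.22 (SE 0.27) and Cct4 at -0.25 (SE 0.33), also lay within 1.5 SE of 0. The motif was chosen after these values were seen. Sites and values of Hspd1 and Hspe1 come from a shared promoter region and are not separate observations of it.

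Partners of these chaperones outside the symbol rule formed a list of 40, with 37 in the table. None passed an adjusted p of 0.1 (edgeR). At an unadjusted p under 0.05, 1 was higher, against 2.77% of all genes, and 0 were lower, against 2.52%. The log2 fold change was below 0 for 17, against 49.2% of all genes. The 1 was Stip1, also called Hop, which holds Hsp70 and Hsp90 together. Reads assigned to Stip1 on both strands gave 100.3, 172.4, 92.4 and 127.9 CPM in control and 372.0, 168.4, 497.2 and 329.1 CPM in obesity. Obesity 2 lay inside the control range, and the other obesity libraries lay far above it. The means of 123.2 ± 36.1 and 341.7 ± 135.8 CPM gave a log2 fold change of 1.47 (SE 0.29, edgeR unadjusted p 0.000111, adjusted p 0.904). Its adjusted p was 0.0365 by DESeq2, 0.0723 without obesity 2 (edgeR) and 0.202 with the block (edgeR). Over the alternatives it ranged from 2.25e-07 to 1.00. Most Stip1 reads (83.5%) lay at a site on chromosome 1 (plus strand, 222277519 to 222277545), with 104, 189, 81 and 146 reads in control and 424, 144, 795 and 446 in obesity. RefSeq lists Stip1 on the minus strand, and all of its 10 nearest genes had most reads on their listed strand. On the plus strand lay 2509 of its 2788 reads, so whether they come from Stip1 mRNA is uncertain. The 4 sites on the minus strand together had 10, 52, 29 and 16 reads in control and 39, 49, 52 and 32 in obesity. Here the groups overlapped, with 18.8 ± 11.8 and 29.6 ± 7.27 CPM and a log2 fold change of 0.65 (SE 0.44, edgeR unadjusted p 0.162, adjusted p 0.927). With the block the edgeR unadjusted p of these minus-strand reads was 0.0464 (adjusted p 0.450). This split was made after the values were seen. The most abundant partners in CPM were the prefoldin subunit Pfdn6 (log2 fold change 0.10, SE 0.37), the co-chaperone Sgta (-0.07, SE 0.72) and the Hsp90 activator Ahsa1 (-0.17, SE 0.21).

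Single polyadenylation sites were compared next, since 49 of the 65 members had 2 or more. None of the 261 member sites passed an adjusted p of 0.1 (edgeR), against 0.00135% of all sites, nor did any with the block, against 0.00541%. At an unadjusted p under 0.05, 1 site (0.383%) was higher, against 1.72% of all sites, and 5 (1.92%) were lower, against 1.41%. With the block these were 3 higher (1.15%, all sites 2.79%) and 18 lower (6.90%, all sites 3.31%), of which 3 belonged to Hsp90ab1. With the block and without both libraries numbered 2, 5 member sites passed an adjusted p of 0.1, against 0.495% of all sites, namely 3 of Hsp90ab1 and 1 each of Bag4 and Hspa13. Groups did not overlap at 3 higher sites (1.15%, all sites 1.43%) and 6 lower sites (2.30%, all sites 1.69%).

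The most 3′ of the 13 Hsp90ab1 sites (17823268 to 17823311) had 179, 157, 158 and 122 reads in control and 66, 96, 109 and 68 in obesity. The groups did not overlap, and 96.9 ± 15.2 against 49.3 ± 14.1 CPM gave a log2 fold change of -0.97 (SE 0.33, edgeR unadjusted p 0.00955, adjusted p 1.00). This site held 2.19% of Hsp90ab1 reads. Hspa12a gave the smallest p of the member sites, at its most 3′ site (chromosome 1, minus strand, 279946801 to 279946829). Reads there were 13, 12, 20 and 16 in control and 1, 7, 3 and 1 in obesity, a log2 fold change of -2.39 (SE 0.79, edgeR unadjusted p 0.0085, adjusted p 1.00), while the gene as a whole had -0.05. A Dnajc18 site (chromosome 18, minus strand, 28466114 to 28466117) had 14, 15, 11 and 7 reads in control and 4, 3, 1 and 4 in obesity, a log2 fold change of -2.01.

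On the higher side, a site assigned to Dnajc8 on the opposite strand (chromosome 5, minus strand, 150741045 to 150741048) had 13, 7, 12 and 8 reads in control and 58, 6, 52 and 22 in obesity. Obesity 2 had fewer reads than any control library, the log2 fold change was 1.57 (SE 0.61), and the assignment of such a site to Dnajc8 is uncertain. Site 4 of 10 in Dnajc7 (chromosome 10, minus strand, 88524380 to 88524383), 26109 bases before the last one, had 16, 7, 17 and 16 reads in control and 24, 26, 51 and 28 in obesity. The groups did not overlap, with a log2 fold change of 1.02 (SE 0.49, edgeR unadjusted p 0.0542, adjusted p 1.00). Dnajc7, a J protein with tetratricopeptide repeats, had -0.12 as a gene. A Dnajc6 site (chromosome 5, plus strand, 120392778 to 120392798) had 25, 10, 12 and 11 reads in control and 51, 18, 46 and 12 in obesity, a log2 fold change of 0.99 (SE 0.54), or 0.64 without obesity 1.

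Whether a member shifted reads among its own sites was tested for these 49. None passed an adjusted p of 0.1 (edgeR, Simes), against 0.0121% of 8276 genes, and none had an unadjusted p under 0.05, against 1.84%. The smallest unadjusted p values were 0.153 for Dnajb2, 0.228 for Hspa13 and 0.249 for Dnajc17, with an edgeR adjusted p of 1.00 for each. For Dnajb2, 94.7 ± 3.58% of control reads and 78.8 ± 22% of obesity reads (SD, n = 4) lay at the last site, which was 58% in obesity 3, 61.6% in obesity 4 and 95.4% or more in the other 2 obesity libraries. Its last site gave Dnajc17 44.0 ± 9.51% of reads (control) and 22.7 ± 8.36% (obesity), on 202 reads in all. Without obesity 2, Dnajc5 passed with an edgeR adjusted p of 0.0940. It has a site with 163 reads in control 2, 103 in obesity 2 and 0 to 12 elsewhere, so that fit sets control 2 against no library like it. With the block its edgeR unadjusted p was 0.217 (adjusted p 1.00), and no member passed with the block and without both libraries numbered 2.

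At some member sites, control and obesity libraries of the same number were alike and differed from the rest. Hsp90ab1 had the most reads at such sites. Site 3 of 13 (17820366 to 17820473) held 3.57, 45.3, 5.34 and 16% of reads in control 1 to 4 and 5.82, 48.4, 10.7 and 28.3% in obesity 1 to 4. In reads, libraries numbered 2 had 3459 (control) and 2228 (obesity), and the other 6 had 142 to 1051. Site 4 (17820488 to 17820616), the neighbouring cluster, held 64.4% of all Hsp90ab1 reads but 45.4 and 41.5% in the libraries numbered 2, against 61.8 to 76.8% elsewhere. Site 8 (17821975 to 17822008) was highest in number 1, at 16.7% (control) and 19.1% (obesity) against 5.95 to 11.8%. All of these sites lie 5′ of the last one, by 2916, 2785 and 1312 bases.

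**Figure D4:**
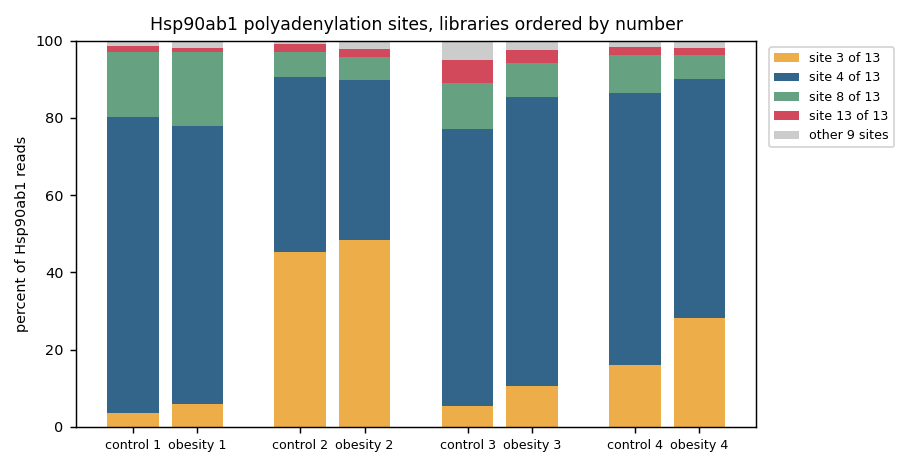
Percent of Hsp90ab1 reads at its polyadenylation sites in each library, with control and obesity libraries of the same number side by side. Site 3 takes 45.3% and 48.4% in the libraries numbered 2 and between 3.57% and 28.3% elsewhere, and site 13 takes 1.11% to 5.94%.

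The same arrangement was counted over all member sites. At 70 of the 261 (26.8%) the 2 highest libraries carried the same number, against 26.0% of all sites, and at 12 (4.60%) both had at least 2 times the CPM of every other library, against 5.24%. The members were therefore like the rest of the table in this respect. Of the 12 sites, 6 were high in number 2, 4 in number 4, 2 in number 3 and 0 in number 1. A Dnajc6 site (chromosome 5, 120375266 to 120375271) had 31 reads in control 4 and 22 in obesity 4 and none in the other 6 libraries. The Dnajc5 site given above (chromosome 3, 177045228 to 177045260) was among those of number 2. Dnaja2 had 98 and 87 reads at its first site in the libraries numbered 2 and 0 to 17 elsewhere, and this site held 60.4% of its reads. The last site of Dnajb6, 27 and 26 reads in number 4, had 1 to 4 elsewhere. Summed per gene, 15 members (23.1%) had their 2 highest libraries under the same number, against 25.2% of all genes, and none reached 2 times every other library, against 1.93%. Dnaja2 came closest, at 1.91 times.

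**Figure D5:**
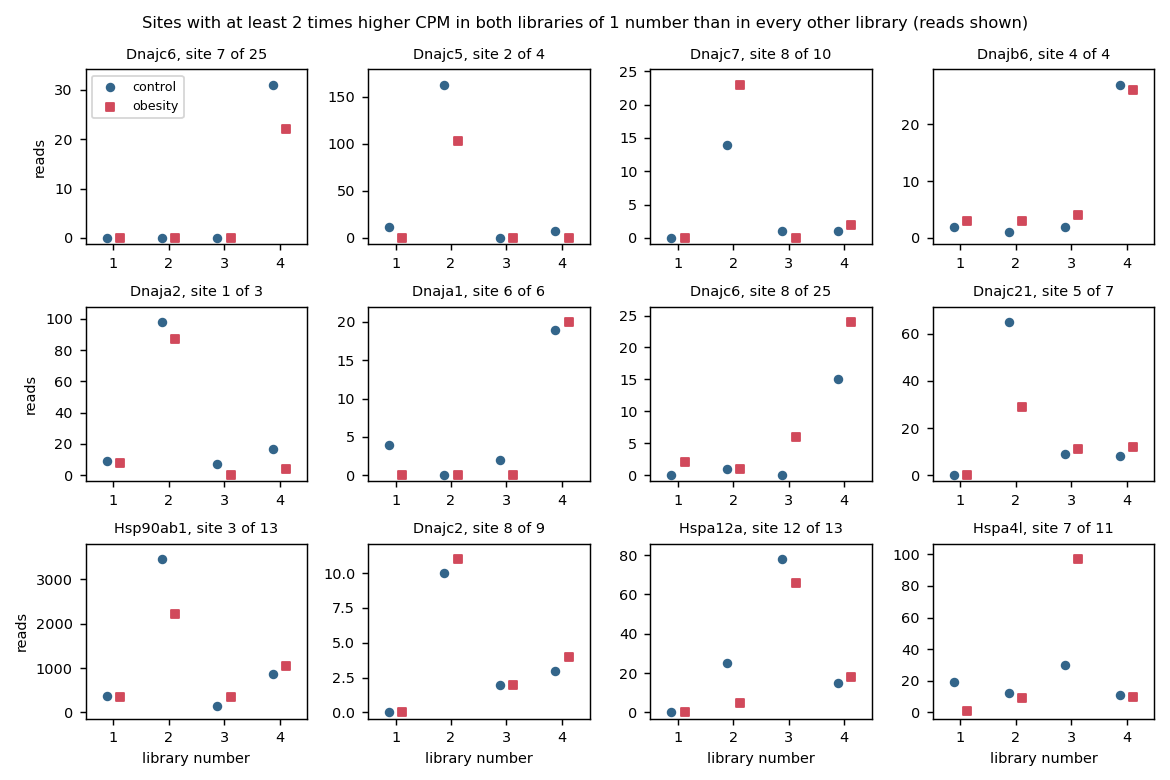
Reads per library at the 12 member sites where both libraries of a number have at least 2 times the CPM of every other library (circles, control, and squares, obesity, with the library number on the horizontal axis). In each panel the control and obesity libraries of 1 number stand above the rest, as at the Dnajc5 site (163 and 103 reads in number 2).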

How the data were processed

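WTTS-seq libraries from the hypothalamus of 8 rats (4 control, 4 diet-induced obesity, as labelled) were analysed. The deposited values were raw read counts per polyadenylation site, and per the labels the submitters' processing notes name Bowtie2 2.2.3 and Rnor_6.0. How sites were clustered, filtered and assigned to genes is not given in the sources used here. The lowest site total was 30 reads, which shows a cutoff before deposition. A line without a site (1 line) was left out, and 8009 sites without a gene entered the site test only. The paper linked to the series describes another exposure than the labels, which gave the groups used here.

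Counts were summed per gene over all of its sites and tested in edgeR 4.0.16 (R 4.3.3, quasi-likelihood F test, robust fit, TMM), with group as the only term and Benjamini-Hochberg adjustment over the whole table (threshold 0.1). SE was the log2 fold change over the square root of F. Site usage was tested with diffSpliceDGE in edgeR (Simes). Alternatives used DESeq2 1.42.0, its size factors, filterByExpr, no robust fit, main strand only, a block for the library number, libraries left out and, added after seeing the data, the minus strand of Stip1 only. Scripts were tested on simulated counts.

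Log2 deviations from the group mean correlated at 0.253 to 0.375 between same-numbered libraries and at -0.21 to 0.0818 between others (9407 genes). Same-numbered libraries were counted as pairs, and the number entered alternative fits as a block. The main fit, its SEs and the group SDs did not use the number. What it stands for is not labelled. Libraries compared by chi-square differed by at least 2.86 per site over 28 comparisons, lowest for control 2 and obesity 2, above the sampling noise of about 1 per site, so all 8 were kept. P-values weigh the group difference against the spread between these libraries, as the fit estimates it with help from the other features. Reads carry no molecular identifiers, and priming in A-rich RNA can be counted as a site. No Rnor_6.0 sequence was used here, and no site was assigned to an exon, intron or untranslated region.

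Members and lists were chosen with earlier results of these data known. Genes named are the 3 higher and 3 lower with the smallest p, any member passing, the 3 most abundant of each family, the heat-inducible list, 3 sites each way with a mean of at least 5 reads, and 3 genes by usage. Partners named are those called and the 3 most abundant. Others follow from a count.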

Additional observations from a re-analysis of the deposited data

Results flagged for a closer look

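In groups of 4, a library standing far from the other 3 of its group was looked for in the 65 members and in the family shares, 154 checks in all. Such a check marks about 1 in 20 by chance, or 7.7 of 154, and 8 were marked. Dnajc6 was at 188.9 CPM in control 4 against 149 to 152 in the other control libraries. Dnaja2 stood at 72.3 CPM in control 2 against 16.4 to 19.3, and obesity 2 was also the highest of its group. Bag1 had 0 CPM in control 1 against 7.44 to 8.61, and Hspbap1 had 17.7 CPM in control 1 against 3.72 to 5.48. In obesity, Hspa1l was at 32.3 CPM in library 3 against 0 to 3.30, Dnajb3 at 4.45 CPM in library 1 against 0 in the others, and Dnajc9 at 12.6 CPM in library 1 against 1.32 to 3.18. The mitochondrial chaperonin genes took 0.00272% of gene reads in obesity 2 against 0.00112 to 0.00138% in the other obesity libraries. Bag1, Hspbap1, Hspa1l, Dnajb3 and Dnajc9 had under 100 reads each in all libraries together.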

How the results depend on the processing

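The count of members past an adjusted p of 0.1 was 0 in each gene fit but the replicate block without both libraries numbered 2, where it was 4, and the same fit gave 5 sites (3 of Hsp90ab1, 1 each of Bag4 and Hspa13). The site usage count was above 0 only without obesity 2, where it was 1, and so ranged from 0 to 1 over the fits without a library. With the replicate block there were 6 lower members at an unadjusted p under 0.05, against 0 to 6 when 1 library was left out, and 6, 10, 3 and 4 with the block and without both libraries numbered 1, 2, 3 and 4. Higher members numbered 0 to 1 without a library, and 1 with the block and without both numbered 4. The block also moved the sites at an unadjusted p under 0.05 from 5 to 18 lower and from 1 to 3 higher. It moved no other count of calls by over 1.5 times. Lower sites also numbered 13 without obesity 1 and 15 without obesity 2, and 4 to 6 without any other library. Higher sites numbered 0 to 3 without a library. With the block and without both libraries numbered 1, 2, 3 and 4, lower sites numbered 17, 23, 12 and 11, and higher sites 2, 2, 0 and 4. Stip1, from its minus strand only (chosen after seeing the data), went from 1.47 to 0.65. Some members changed sign. Dnajc8 went to -0.0285 on its main strand. Without a library, log2 fold changes ran from -0.36 to 0.0614 for Cct7, -0.62 to 1.03 for Dnaja2, -0.80 to 0.29 for Dnaja3, -0.17 to 0.38 for Dnajb6, -0.22 to 0.12 for Hspa12a, -0.52 to 0.10 for Hspd1 and -0.29 to 0.36 for Bag3. With the block they were -0.25 (Dnaja2), -0.24 (Bag3), 0.0158 (Hspa12a) and 0.0084 (Hspa4l) without both numbered 1, -0.28 (Dnajb6) and -0.0662 (Bag3) without both numbered 2, 0.0867 (Cct7) and 0.27 (Hspd1) without both numbered 3, and 0.002 (Hspd1) without both numbered 4. The causes were not tested. Depth limits the 16 members under 100 reads.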
